A study of Mus musculus with 6 samples.

Results

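Surface ectoderm is the sheet that covers the embryonic head and gives rise to the epidermis, the corneal and conjunctival epithelium, the eyelids and the lens. The genes described here are 10 genes of that sheet, named by symbol and taken from 18193 genes that the platform annotation names singly. They are 4 basal keratins (Krt5, Krt14, Krt15 and Krt17), 2 simple keratins (Krt8 and Krt18) and 4 regulators or accessory genes (Trp63, Perp, Grhl3 and Tmprss11a). Every probe set assigned to exactly 1 of them was used, which gave 18 probe sets, and all 10 genes had at least 1.

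RNA came from mouse retinal pigment epithelium (RPE), as the tissue is labelled, at embryonic day 13.5, and was put on 6 arrays, 3 of the albino genotype and 3 of the pigmented control genotype. An array stood for a pool of 3 to 4 embryos from 1 litter, and the pools are labelled as biological replicates. No strain, allele or treatment is given in the labels beyond albino and pigmented, and sex was not given. The labels' protocol has cornea, lens, neural retina and tissue around the eye detached before the pigment epithelium was pooled, while the sample descriptions speak of the whole eye region.

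Values are log2 expression values, and a probe set was tested where its mean over the 6 arrays was at least 5. The list mean of the 12 tested of 15 RPE identity genes was 9.67 to 10.06 on the 6 arrays, so many markers of the labelled tissue were present. By gene the tested means ran from 5.65 for Best1 to 12.56 for Pmel. Rpe65, Lrat and Rgr, with means of 3.23, 3.025 and 3.055, were below the limit. Markers of other tissue were read as well. The mean of 13 tested skeletal muscle genes was 8.75 to 9.46 on the albino arrays against 7.27 to 8.21 on the pigmented arrays. The mean of 8 lens genes was 6.85 to 7.10 on 5 arrays and 5.15 on albino replicate 3. The first principal component, with 68.9% of the variance, set the replicate 1 arrays of both genotypes apart from the other 4 arrays. Neural retina genes had lower albino means in 7 of 8 tested (median -0.33), lens genes in 8 of 8 (-0.32), RPE identity genes in 11 of 12 (-0.14), periocular mesenchyme genes in 5 of 9 (-0.07) and endothelial genes in 3 of 6 (0.06), with 0 past the adjusted threshold of the test described below and 2, both RPE genes and both lower, at an unadjusted p under 0.05. Over all tested genes 35.2% had lower albino means and 1.31% were lower at an unadjusted p under 0.05. The lower albino mean of the lens list rested on albino replicate 3. Albino replicates 1 and 2, at 6.86 and 7.05, lay within the pigmented range of 6.85 to 7.10.

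Keratins form intermediate filaments only as pairs of a type I and a type II protein. Krt5 (type II) and Krt14 (type I) are the pair of the basal layer of stratified epithelia, where Krt15 is a further type I partner, and Krt8 (type II) and Krt18 (type I) are the pair of single-layered epithelia, RPE among them. Trp63 encodes p63, the transcription factor of the p53 family that stratified epithelia need, and Krt5, Krt14 and Perp are known targets of p63. In the gene order of mouse assembly GRCm38.p6, Krt8 and Krt18 are direct neighbours with 0 protein-coding genes between them, although their proteins belong to different keratin types. Krt14 and Krt17 had only Krt16 between them.

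Promoter windows, from 250 bases before to 50 bases after the annotated start, were listed for 6 of the 10 genes (RefSeq, GRCm38.p6). Of these, 4 are shown, the simple pair together with the basal keratin Krt5 and with Tmprss11a, the member that differed most between the genotypes. Both strands were searched for TATAAA, for the AP-2 palindrome GCCNNNGGC and for the p53 family half-site, a motif of 10 letters. Capitals mark every match, and overlapping matches run together.
Krt5 (chr15:101712856-101713155, minus strand): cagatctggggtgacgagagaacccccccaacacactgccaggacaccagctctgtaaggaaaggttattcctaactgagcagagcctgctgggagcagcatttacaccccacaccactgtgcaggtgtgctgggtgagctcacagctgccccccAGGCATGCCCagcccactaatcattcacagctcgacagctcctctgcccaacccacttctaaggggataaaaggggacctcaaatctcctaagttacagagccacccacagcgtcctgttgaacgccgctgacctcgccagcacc
Tmprss11a (chr5:86468941-86469240, minus strand): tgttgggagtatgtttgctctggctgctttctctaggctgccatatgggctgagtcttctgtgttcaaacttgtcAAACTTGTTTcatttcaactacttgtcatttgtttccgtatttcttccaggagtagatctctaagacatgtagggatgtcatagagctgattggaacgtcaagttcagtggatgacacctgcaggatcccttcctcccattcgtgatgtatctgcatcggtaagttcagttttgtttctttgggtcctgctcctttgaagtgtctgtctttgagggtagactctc
Krt8 (chr15:102004293-102004592, minus strand): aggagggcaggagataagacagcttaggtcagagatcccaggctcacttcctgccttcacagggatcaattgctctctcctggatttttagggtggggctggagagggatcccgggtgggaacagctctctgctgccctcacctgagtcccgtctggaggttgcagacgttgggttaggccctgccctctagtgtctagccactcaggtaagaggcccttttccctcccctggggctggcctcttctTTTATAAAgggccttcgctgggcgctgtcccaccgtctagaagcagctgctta
Krt18 (chr15:102027966-102028265, plus strand): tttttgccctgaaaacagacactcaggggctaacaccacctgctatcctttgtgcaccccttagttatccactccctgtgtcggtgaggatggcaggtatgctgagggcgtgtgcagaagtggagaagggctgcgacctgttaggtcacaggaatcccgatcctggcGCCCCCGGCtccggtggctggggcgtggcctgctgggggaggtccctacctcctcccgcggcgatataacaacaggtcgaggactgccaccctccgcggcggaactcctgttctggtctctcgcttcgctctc

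The windows of Krt5 and Tmprss11a each held 1 match to the p53 family half-site, starting at position -95 and at position -175 from the annotated start. That motif matched in 8.36% of all 32851 promoter windows of this length. Krt8 held TATAAA on both strands in 1 overlapping run, starting at positions -3 and -1, and this motif was in 13.6% of windows. Krt18 held 1 AP-2 palindrome, starting at position -83, a motif in 16.6%. The windows of Krt14 and Grhl3 held no match to these letters. These matches are descriptions of the letters alone.

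Of the 18 probe sets, 10 reached a mean of 5 and were tested, and they covered 8 of the 10 genes. The 8 probe sets below it had means of 2.65 to 4.39 and are given as values without a test. They comprised both Krt17 probe sets, the 1 probe set of Grhl3, 2 of the 3 of Krt14 and 3 of the 4 of Trp63. Just inside the limit were Krt14 1423935_x_at with a mean of 5.59 and Tmprss11a with 5.64, and just outside it was Krt14 1460347_at with 4.39.

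**Figure D1:**
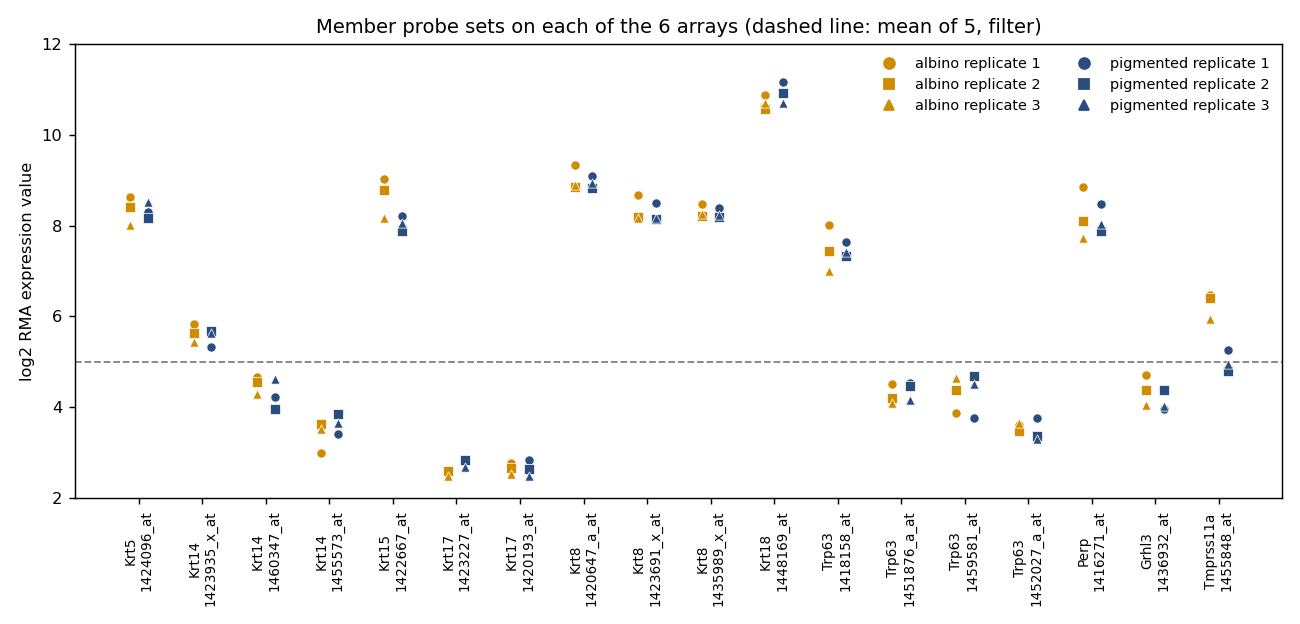
Log2 expression value (vertical axis) of each member probe set (horizontal axis) on the 6 arrays, with albino arrays in orange and pigmented arrays in blue and the replicate number as the marker shape. The 10 tested probe sets have means from 5.59 to 10.82, and only at Tmprss11a do all albino arrays lie above all pigmented arrays among these 10.

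No member differed between the genotypes past the adjusted threshold. In limma, 0 of the 10 tested member probe sets had an adjusted p under 0.05, as did 0% of the 23591 probe sets tested. At an unadjusted p under 0.05 stood 2 of the 10, Tmprss11a and Krt15, both higher in albino pools, against 3.22% of all probe sets in that direction and 4.68% in either. On the lower side stood 0 of the 10, against 1.46% of all probe sets. The genotypes did not overlap at 1 of the 10, against 10.8% of all. The median difference of the 10, albino minus pigmented, was 0.075 log2 units beside 0.05 over all tested probe sets. Counted by gene, each by its probe set of highest mean, the direction was positive for 7 of the 8 tested members and for 64.8% of all tested genes. The members and all gene lists were chosen with earlier results of these data known, so such counts beside the background are descriptions only.

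**Figure D2:**
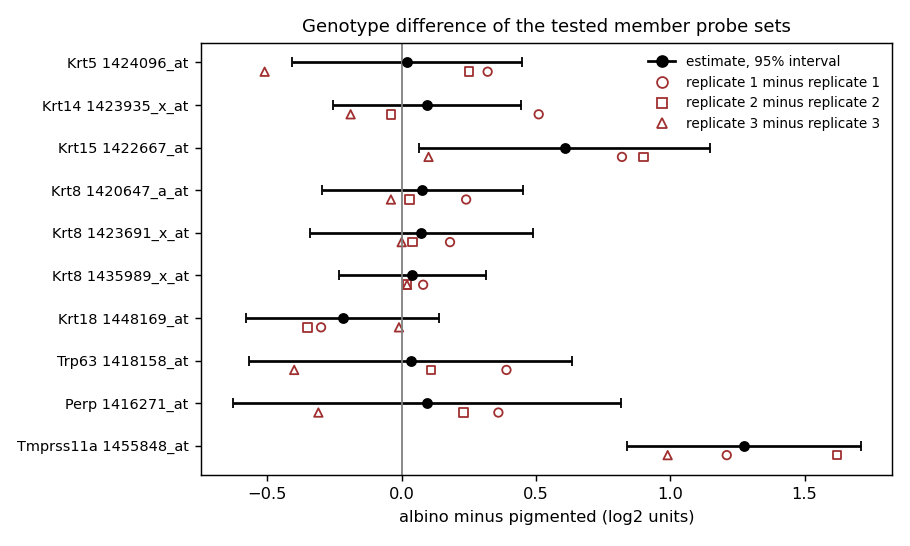
Albino minus pigmented difference in log2 units (horizontal axis) of the 10 tested member probe sets, as the limma estimate with its 95% interval (black) and as the difference between arrays of the same replicate number (red). Only Tmprss11a (0.84 to 1.71) and Krt15 (0.06 to 1.15) have unadjusted intervals that leave out 0.

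Among the basal keratins, Krt5 was clearly measured, and its genotype means lay close together. Its log2 values were 8.62, 8.41 and 8.02 on albino replicates 1 to 3 against 8.30, 8.16 and 8.53 on the pigmented ones. Albino arrays held both the highest and the lowest value. The difference was 0.02 (SE 0.18, 95% interval -0.41 to 0.45, limma adjusted p = 0.999). The pools of 1 genotype spread over 0.60 log2 units, more than the genotype means differed.

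Krt15 leaned higher in albino pools without passing the test. It read 9.02, 8.78 and 8.16 on the albino arrays against 8.20, 7.88 and 8.06 on the pigmented arrays. Albino replicates 1 and 2 stood above every pigmented array, but replicate 3 fell inside the pigmented range. Means were 8.65 ± 0.44 and 8.05 ± 0.16 (SD, n = 3 each), a difference of 0.61 or 1.52-fold (SE 0.23, limma adjusted p = 0.999). Between arrays of the same number the difference was 0.82, 0.90 and 0.10. Its unadjusted limma p of 0.033 became 0.092 without albino replicate 1, 0.093 without albino replicate 2, 0.099 without pigmented replicate 2 and 0.073 without pigmented replicate 3.

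Krt14, the type I partner of Krt5, was low on all 3 of its probe sets. The tested one, 1423935_x_at, read 5.83, 5.63 and 5.44 on albino arrays against 5.32, 5.67 and 5.63 on pigmented arrays. Its difference was 0.09 (SE 0.15, limma adjusted p = 0.999). By the platform's naming, a probe set ending in _x_at holds probes that can match other transcripts, and Krt14 has close relatives. The 2 others, 1460347_at and 1455573_at, had means of 4.39 and 3.50 and differences of opposite sign, 0.24 and -0.27. A further probe set that the annotation assigns to Krt17 and Krt14 together was left out, and it read 3.80 to 4.31.

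Krt17, a type I keratin of skin appendages and of injured epidermis, was at the bottom of the scale. Probe set 1423227_at read 2.60, 2.59 and 2.48 in albino pools against 2.82, 2.83 and 2.69 in pigmented pools, and 1420193_at lay between 2.49 and 2.83 on all arrays. The first set does not overlap between genotypes by a gap of under 0.1 log2 units, at values where differences are not read as expression, and the second differed by -0.0033.

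For the simple keratins the genotypes overlapped on every probe set. Krt18 read 10.87, 10.56 and 10.69 on the albino arrays against 11.17, 10.91 and 10.70 on the pigmented arrays. It was the only tested member with a lower albino mean, by -0.22 (SE 0.15, 95% interval -0.58 to 0.14, limma adjusted p = 0.999). The difference at replicate 3 was -0.01 against -0.30 and -0.35 at replicates 1 and 2.

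Krt8 was measured by 3 probe sets with similar differences. The one with the highest mean, 1420647_a_at, read 9.34, 8.86 and 8.90 in albino pools against 9.10, 8.83 and 8.94 in pigmented pools. Replicate 1 was the highest array in both genotypes, and the remaining 4 arrays lay between 8.83 and 8.94. Differences of the 3 probe sets were 0.08, 0.07 and 0.04 (SE 0.16, 0.17 and 0.11), and all had limma adjusted p = 0.999. The others, 1423691_x_at and 1435989_x_at, spanned 0.52 and 0.29 log2 units over the 6 arrays. Both end in _x_at, so they hold probes that can match other transcripts.

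Set against each other on each array, basal and simple keratins differed in a way that changed from pool to pool. Because probe sets respond differently, the size of the basal minus simple difference has no meaning of its own and only its change between arrays is read. With 4 basal and 2 simple keratins, each by its probe set of highest mean, it was -3.59, -3.36 and -3.77 on the albino arrays against -3.98, -3.74 and -3.59 on the pigmented arrays. Pigmented replicate 3 and albino replicate 1 were level, and the genotypes overlapped. The means were -3.57 ± 0.21 and -3.77 ± 0.19 (SD, n = 3 each), so the shift towards basal keratins in albino pools was 0.20, about 1 SD. The basal mean includes Krt17, which was below the filter limit. With the mean of all probe sets that reached 5 the shift was 0.32, and with Krt5 and Krt14 alone as the basal keratins it was 0.13. It fell to 0.089 without albino replicate 2 and 0.092 without pigmented replicate 1, and was 0.295 without albino replicate 3.

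Between arrays of the same number that shift was 0.39, 0.38 and -0.18. Only replicate 1 was matched by its own number alone. The values at replicates 2 and 3 therefore depend on how those arrays are numbered. The basal mean itself was 6.52, 6.35 and 6.03 on albino arrays against 6.16, 6.14 and 6.23 on pigmented arrays, and the simple mean 10.11, 9.71 and 9.80 against 10.14, 9.87 and 9.82. The mean of the 4 basal keratins had an SD of 0.25 over albino and 0.048 over pigmented pools, but Krt5, Krt14 and Krt15 each had an SD of 0.16 to 0.19 over pigmented pools, and Krt14 varied about equally in both genotypes (0.20 against 0.19). Simple keratins had their high value at replicate 1 in both genotypes. No test was made of this contrast.

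**Figure D3:**
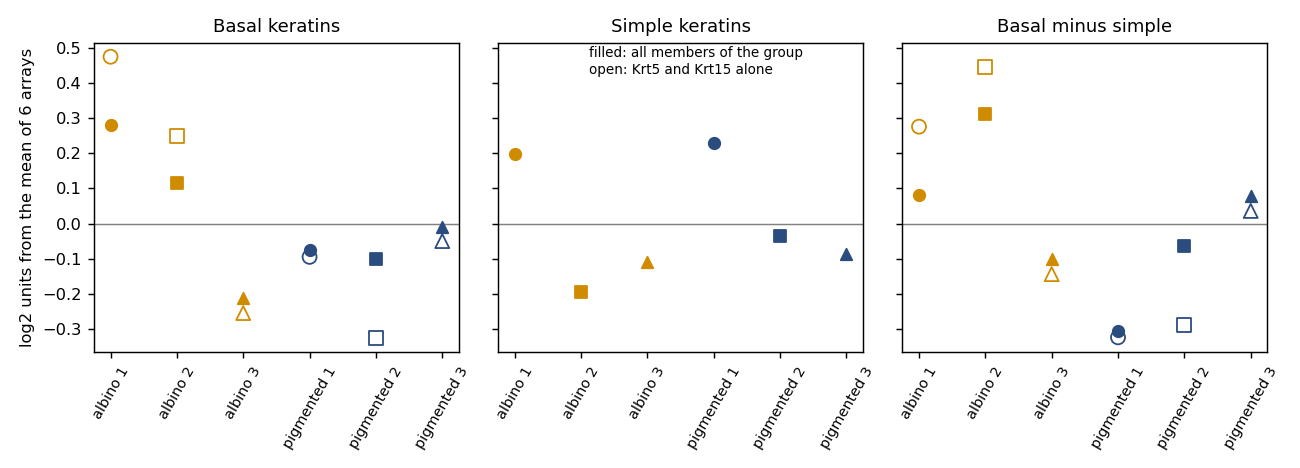
Mean of basal keratins, mean of simple keratins and their difference on each array (horizontal axis), in log2 units from the mean of the 6 arrays (vertical axis). Filled markers use all 4 basal keratins and open markers Krt5 and Krt15 alone. Simple keratins are highest at replicate 1 of both genotypes, and the basal minus simple difference is highest on albino replicate 2 and lowest on pigmented replicate 1.

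Within the basal group Krt15 had the larger difference, 0.61 against 0.02 for Krt5, though Krt15 by itself overlapped between the genotypes. Krt15 minus Krt5 was 0.40, 0.37 and 0.14 on the albino arrays against -0.10, -0.28 and -0.47 on the pigmented arrays, a pair chosen after its values were seen. Every albino array lay above every pigmented array, with means of 0.30 ± 0.14 and -0.28 ± 0.18 (SD, n = 3 each). The share of all gene pairs that split in this way was not computed, so the split is a description only. Krt15 minus Krt8 and Krt15 minus Krt18 also split with albino higher, and Krt5 minus Krt18 overlapped. Krt5 minus Krt8 showed no such split, at -0.72, -0.45 and -0.88 against -0.80, -0.67 and -0.41.

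Within the simple pair, Krt18 minus Krt8 was 1.53, 1.7 and 1.79 on albino arrays against 2.07, 2.08 and 1.76 on pigmented arrays. The genotypes overlapped at replicate 3, where the values 1.79 and 1.76 were nearly the same.

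Among the regulators, Trp63 was not shown to differ between the genotypes. Its tested probe set, 1418158_at, read 8.02, 7.45 and 7.01 in albino pools against 7.63, 7.34 and 7.41 in pigmented pools. The albino arrays enclosed the pigmented ones, and their difference was 0.03 (SE 0.25, 95% interval -0.57 to 0.63, limma adjusted p = 0.999). The 3 other Trp63 probe sets had means of 4.33, 4.31 and 3.52 and differences of -0.11, -0.02 and 0.10.

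Perp, which encodes a tetraspan membrane protein of desmosomes, had the same shape as Trp63. It read 8.84, 8.10 and 7.73 on the albino arrays against 8.48, 7.87 and 8.04 on the pigmented arrays. The spread over albino pools was 1.11 log2 units while the genotype means differed by 0.09 (SE 0.30, 95% interval -0.63 to 0.82, limma adjusted p = 0.999).

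Grhl3, a grainyhead-like transcription factor gene of the epidermal barrier and of eyelid closure, lay below the limit. The values were 4.71, 4.37 and 4.05 in albino pools against 3.97, 4.38 and 4.03 in pigmented pools. The difference of 0.25 rested on the replicate 1 arrays, at 0.74 there against -0.01 and 0.02 at replicates 2 and 3. Relatives of Grhl3 were better measured, Grhl2 with a mean of 7.12 and Grhl1 with 5.19, and they differed by 0.23 and 0.04.

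Tmprss11a, which encodes a type II transmembrane serine protease of the airway trypsin-like group, had the largest genotype difference of the members. It read 6.46, 6.41 and 5.95 on the albino arrays against 5.25, 4.79 and 4.96 on the pigmented arrays. All albino arrays lay above all pigmented ones, which 7.39% of all tested probe sets also did in that direction. Means were 6.27 ± 0.28 and 5.0 ± 0.23 (SD, n = 3 each), a difference of 1.27 or 2.42-fold (SE 0.18, 95% interval 0.84 to 1.71 log2 units). Its unadjusted p of 0.000282 ranked 6 among 23591, yet the limma adjusted p was 0.50. With array weights it was 0.0659, and over all alternatives that tested it the range was 0.0659 to 1.

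The pigmented level of Tmprss11a was at the filter limit, with 2 of its 3 pigmented arrays under 5, so the fold rests on a group close to background. Between arrays of the same number the difference was 1.21, 1.62 and 0.99. The family members Tmprss11d, Tmprss11e and Tmprss11f had means of 2.31, 2.48 and 2.20 and were not tested.

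Skeletal muscle genes were higher in the same albino pools. All 13 tested of 14 had higher albino means, none overlapped between the genotypes, and 0 passed the adjusted threshold (13 at an unadjusted p under 0.05). Over all tested genes, 7.97% had every albino array above every pigmented array and 3.47% were higher at an unadjusted p under 0.05. The list mean was 9.44, 9.46 and 8.75 on the albino arrays against 7.61, 7.27 and 8.21 on the pigmented arrays. Of the defining muscle regulators, Myf5 had a mean of 7.19 over the 6 arrays, Myog 8.20 and Myod1 5.78, and Myf6 stayed under the limit at 4.45. Like Tmprss11a and Krt15, the muscle list was lower on albino replicate 3 than on replicates 1 and 2. Over the pigmented arrays they differed, with the muscle list highest at replicate 3 and both Tmprss11a and Krt15 highest at replicate 1. The part of muscle in the values of Tmprss11a and Krt15 was not tested. In pooled tissue, fewer cells of a type and less RNA per cell cannot be told apart.

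**Figure D4:**
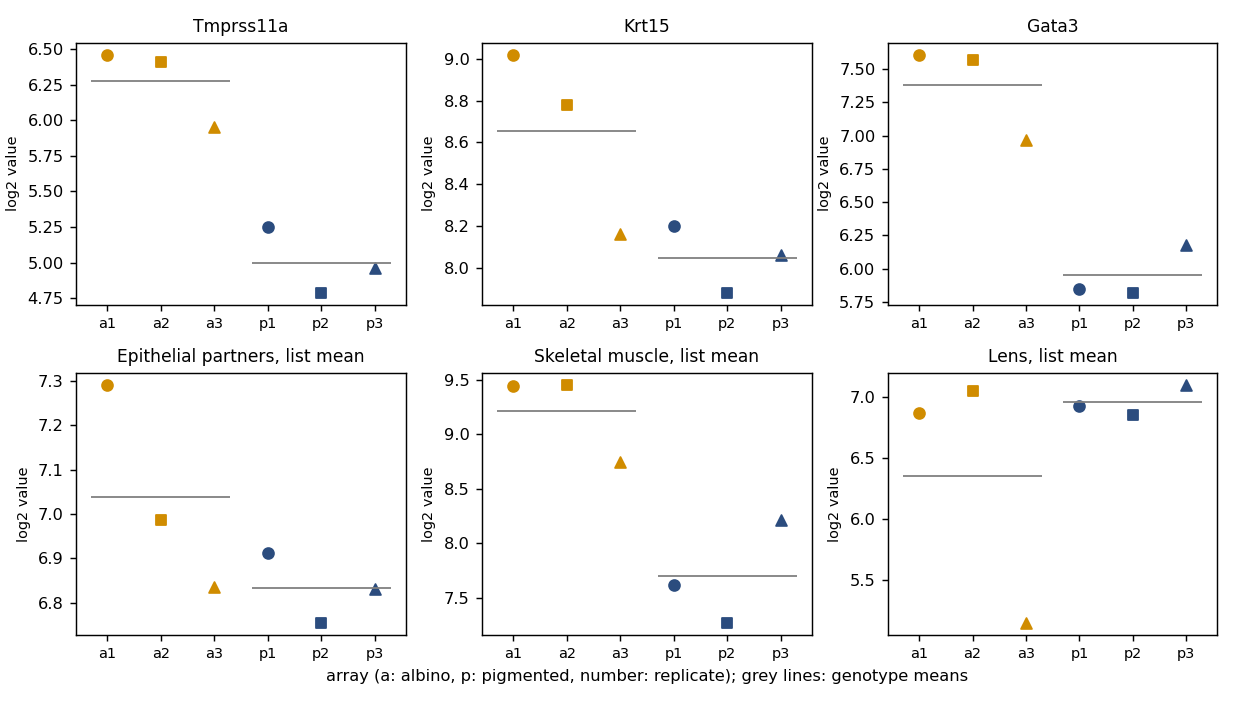
Log2 values of Tmprss11a, Krt15 and Gata3 and the list means of epithelial regulators and partners, skeletal muscle genes and lens genes on the 6 arrays (a1 to a3 albino, p1 to p3 pigmented), with grey lines at the genotype means and a vertical axis scaled for each panel. The muscle mean is 8.75 to 9.46 in albino pools against 7.27 to 8.21 in pigmented pools, and the lens mean drops to 5.15 on albino replicate 3 alone.

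The members shared a pattern over the albino pools that was not confined to them. Taking each gene by its probe set of highest mean, albino replicate 1 was the highest of the 6 arrays for 7 of the 8 tested genes, all but Krt18. That array was also the highest for 43.5% of all 12098 tested genes. It was the highest for 18 of 24 tested epithelial regulators and partners (75%), 5 of 14 desmosome and hemidesmosome genes (35.7%) and 2 of 6 further keratins (33.3%). Among pigmented arrays, replicate 1 was likewise the highest for Krt15, Krt8, Krt18, Trp63, Perp and Tmprss11a, but not for Krt5 and Krt14. No share over all tested genes was taken for the pigmented arrays, so that order is a description only. Among albino arrays, replicate 1 was highest and replicate 3 lowest for 6 of 8 genes, namely the 3 basal keratins, Trp63, Perp and Tmprss11a. Over all tested genes 32% had this order. Neither simple keratin had it by its probe set of highest mean, but Krt8 1423691_x_at did, with 8.67, 8.19 and 8.17.

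Albino replicate 3 was the lowest of all 6 arrays for 3 of the 8 genes (Krt5, Trp63 and Perp), as for 10.5% of all tested genes. For 7 of 8 genes the SD over albino pools was larger than that over pigmented pools, against 47.3% of all genes. The lens list had its lowest mean on the same albino array, 5.15, and its part in the low keratin values was not tested.

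Other epithelial genes gave a mixed picture. Of 35 epithelial regulators and partners, the annotation used names 32 and 24 were tested, of which 18 had higher and 6 lower albino means, with a median difference of 0.18 beside 0.04 over all tested genes. None passed the adjusted threshold, and 4 had an unadjusted p under 0.05 and higher values in albino, 16.7% of the 24 beside 3.47% of all tested genes in that direction. The list was chosen with earlier results of these data known, so this share is a description only.

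Those 4 are Gata3, Klf4, Epcam and Pitx1. Gata3, a transcription factor gene of ectoderm and many other tissues, read 7.61, 7.57 and 6.97 in albino pools against 5.85, 5.82 and 6.18 in pigmented pools, a difference of 1.43 (SE 0.20, limma adjusted p = 0.50). Klf4, a factor of epidermal differentiation, differed by 0.40 (SE 0.09), Epcam, an epithelial adhesion gene, by 0.44 (SE 0.15), and the limb and jaw factor gene Pitx1 by 0.36 (SE 0.14). The second Pitx1 probe set differed by 0.19, with overlapping genotypes, and the second Klf4 probe set by 0.40. The second Epcam probe set leaned the other way, with 6.18, 5.63 and 5.83 in albino pools against 6.41, 5.91 and 6.19 in pigmented pools. The muscle list mean was higher by 1.52 in the same albino pools, and its part in these values was not tested.

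Genes of desmosomes and hemidesmosomes, which anchor keratin filaments, did not lean the same way. Of 14 tested, 5 were higher and 9 lower in albino pools, with a median of -0.01. Dsc3, a desmosomal cadherin gene of basal layers, read 8.20, 8.18 and 8.21 in albino pools against 8.86, 8.76 and 8.59 in pigmented pools, a difference of -0.54 (SE 0.10, limma adjusted p = 0.51). Col17a1, a hemidesmosomal collagen gene of basal cells, differed by 0.43 (SE 0.18), Dsc2 by -0.26 (SE 0.14) and the periplakin gene Ppl by -0.31 (SE 0.18). Of this list 0 passed the adjusted threshold, with 1 higher and 1 lower at an unadjusted p under 0.05 (7.14% each, beside 3.47% and 1.31% of all tested genes).

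Markers of later or other surface epithelia were mostly dim. Of 20 further keratins that the annotation used names, 14 had a mean below 5, among them Krt12 of the corneal epithelium and Krt4 and Krt13 of mucosal epithelium. The 6 tested were Krt1, Krt6a, Krt7, Krt10, Krt19 and Krt78, with differences from -0.20 to 0.43 and 0 past the adjusted threshold (0 at an unadjusted p under 0.05). Krt19, a type I keratin of simple and basal epithelia, had the largest, 0.43 (SE 0.27), and read 7.85, 7.21 and 6.85 in albino pools against 7.16, 6.68 and 6.79 in pigmented pools. Krt78 differed by -0.20 (SE 0.15), Krt10 by 0.12 (SE 0.09) and Krt7 by 0.12 (SE 0.14).

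Of 12 genes of the cornified layers, 9 were below the limit, and the 3 tested, Sbsn, Lor and Tgm3, differed by 0.19, -0.11 and -0.14. Of a further list of 5 genes of other epithelia, 3 were tested. Of these Upk3b differed by 0.36 (SE 0.12) and did not overlap between the genotypes, as 7.97% of all tested genes did not with albino higher, Upk1b by 0.22 (SE 0.14) and Lgals7 by -0.0067 (SE 0.24), with limma adjusted p of 0.976 for Upk3b.

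Genes whose profile over the 6 arrays was most like that of the keratins were sought among 1731 probe sets that spanned at least 1 log2 unit. The measure was Pearson's r over 6 arrays that share 2 genotypes and a replicate 1 effect, and it is a description only. For the basal mean the nearest were Myom3 (r = 0.94), a muscle M-band gene, Tmcc3 (r = 0.93), Alas2 (r = 0.92), the erythroid gene of heme synthesis, Asb2 (r = 0.90) and Calml3 (r = 0.88), a calmodulin-like gene of epithelia. For the simple mean they were Ttc34, Cfap298, Gprin1, Apcs and Cdc42ep5, with r of 0.993 to 0.996, and each of these read highest on the replicate 1 arrays of both genotypes. Calml3 read 7.96, 7.52 and 6.75 in albino pools against 7.59, 7.12 and 7.52 in pigmented pools.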

How the data were processed

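The deposited table holds log2 RMA expression values made by the authors with Affymetrix Expression Console 1.1 and RMA, per the submitters' processing notes. RMA makes array distributions alike, so differences are relative to other probe sets. The sources used here do not say whether the 6 arrays went through RMA together. Biotin-labelled cRNA came from 100 ng of RNA by 3'-primed labelling, per the labels' protocols. Of 45101 probe sets, 64 controls were left out. Of the rest, 34945 name 1 gene in the platform annotation, 932 several and 9160 none; for 34741 of the 34945 the Entrez ID matched RefSeq GRCm38.p6, with 0 symbols changed.

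Probe sets with a mean of at least 5 over the 6 arrays (23591, for 12098 genes) entered a two-sided linear model in R 4.3.3 (limma 3.58.1, moderated by eBayes at its defaults) as the albino minus the pigmented mean, adjusted over all of them by Benjamini-Hochberg at 0.05. Errors are SD over 3 arrays or the SE of the limma estimate, and the number of arrays limits the precision. All adjusted p-values are limma's. The code was tested on simulated data with less noise than these arrays have, which does not show how small a change could be found here.

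Deviations from the genotype means correlated at 0.863, 0.687 and 0.448 between arrays numbered 1, 2 and 3 in both genotypes, which was read as pairing by number; the labels do not state it. Only number 1 was matched by its own number alone, since albino replicate 2 correlated as closely with pigmented replicate 3 (0.693) and albino replicate 3 more closely with pigmented replicate 2 (0.546). Main results use no replicate block.

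The members and gene lists were chosen with earlier results of these data known. Named genes were all member probe sets, up to 4 genes a list with the smallest unadjusted p in the lists of related epithelial genes, and the 5 genes nearest in profile to each keratin mean. Grhl1, Grhl2, the Tmprss11 relatives, the muscle regulators, the RPE genes and keratins listed as dim or tested were named after their values were seen. Alternatives were the block, 2 other scalings, other filters, array weights, a variance trend and leaving out arrays.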

Additional observations from a re-analysis of the deposited data

How the results depend on the processing

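In each fit run 0 member probe sets and 0 probe sets overall passed the adjusted threshold in limma, and members at an unadjusted p under 0.05 numbered 1 to 3, with 2 in the main result; Krt15 was the one lost in 4 of the 6 fits with 1 array left out and without both replicate 1 arrays, and Tmprss11a was not tested at a filter of 6. Under the replicate block 0 passed, with the smallest adjusted p at 0.192 and 4243 probe sets at an unadjusted p under 0.05 instead of 1104. The block changed no adjusted call of a member. It brought Krt18, lower in albino pools by -0.22, to an unadjusted limma p of 0.0499 from 0.188. Array weights gave 3510, with the smallest adjusted p at 0.0659 (Tmprss11a), and leaving out both replicate 1 arrays 3052. Leaving out 1 array gave 567 (without pigmented replicate 2) to 1418, with 610 without albino replicate 2. Of the 1104, 68.8% were higher in albino pools. The share was 51.8% of 1457 after cyclic loess and 54.8% of 1517 without the filter. Tmprss11a (1.17 to 1.44 with 1 array left out), Krt15 (0.42 to 0.85) and Krt18 (-0.33 to -0.10) kept their sign under all alternatives that tested them, and the basal minus simple shift stayed between 0.09 and 0.30 with 1 array left out. It was 0.32 with the mean of all probe sets that reached 5, 0.13 with Krt5 and Krt14 alone, 0.39 with Krt5 and Krt15 alone and 0.31 without Krt17, the last 2 chosen after seeing the data. The other members had differences near 0 whose sign turned, in 25 of 97 values, and the cause was not tested. With 1 array left out the ranges were -0.12 to 0.18 for Krt5, -0.017 to 0.19 for Krt14, -0.077 to 0.16, -0.090 to 0.18 and -0.042 to 0.10 for the Krt8 probe sets, -0.23 to 0.28 for Trp63 and -0.22 to 0.34 for Perp. Cyclic loess gave -0.030 for Krt5, -0.010 for Krt8 1435989_x_at and -0.023 for Trp63. Array weights gave -0.15 for Krt5, -0.10 for Krt14, -0.15 for Trp63 and -0.057 for Perp. Without both replicate 1 arrays the values were -0.13, -0.12, -0.14 and -0.040, and -0.0050 for Krt8 1420647_a_at. Members with a mean under 5 were not tested, and 3 pools a genotype limit every interval.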
